A study of Mus musculus with 20 samples.

Results

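Agxt2l1, Fam107a, Sepp1, Plbd1 and Otop2 are 5 of the 30210 names on the array, read by 6 of its 39429 probes. They were chosen on measured values, for the agreement of 3 pools of mouse prefrontal cortex RNA after acute social stress, and every probe that carries one of the names was kept. Their ratios after acute stress are therefore a description and were not tested. Ratios at the other time points come from other mice and were not used in the choice. They were read on the same slides and in the same dye orientations as the acute ratios, so they are not technically independent of them.

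RNA came from a coronal slice of the frontal pole, with orbital, prelimbic and frontal association cortex, of male Swiss-Webster mice, housed singly from 12 weeks of age. They were habituated before stress, so that they were older at sampling, and older still in the later groups. Stress was an encounter as an intruder in a cage of male Swiss Webster mice housed in groups. Acute stress was a single encounter, and from the next day the other groups had repeated shorter ones each day. The groups were acute stress (a single day), 8 days, 13 days, and 13 days followed by 5 days of recovery, each with its own unstressed control mice, and in the first 3 the tissue was taken 24 h after the last encounter. A pool held RNA from 3 mice, and a stress pool and a control pool of its siblings shared a dual-colour array. Each time point had 3 such pairs of pools on 5 arrays, which gives 12 pairs on 20 arrays. Stressed and control mice lived in separate rooms, so that room and stress cannot be told apart. Over all probes, the ratios of the 2 arrays that read one pool in opposite dyes, each turned to stress over control, correlated negatively in 8 of 8 pools (r from -0.36 to -0.092), so that differences between the dyes remained after normalization. They do not cancel in pool 1, which was read in one orientation, and the SD over probes was 0.151 to 0.175 in pool 1 against 0.0737 to 0.101 in pools 2 and 3. The part of the dyes in the values of pool 1 was not tested. Because mice were pooled, the spread between single animals was not measured on these arrays. In a tissue slice, fewer cells of a type cannot be told apart from less RNA per cell.

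The 5 genes do not belong to one pathway. Agxt2l1, called Etnppl in RefSeq, codes for an enzyme that breaks down phosphoethanolamine, a building block of membrane lipids, and in brain it is known as an astrocyte transcript. Fam107a codes for an actin-binding protein whose transcript is known to respond to stress and glucocorticoids. Sepp1, called Selenop in RefSeq, codes for the secreted selenoprotein that carries selenium to cells. Plbd1 codes for a protein with a phospholipase B domain, and Otop2 for a member of the otopetrins, a family of proton channels.

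In mm9 the probe of Agxt2l1 lies at chr3:130338517-130338576 on the plus strand, that of Sepp1 at chr15:3230418-3230477 (plus), that of Plbd1 at chr6:136560619-136560678 (minus) and that of Otop2 at chr11:115193550-115193609 (plus). Fam107a was read by a bright probe at chr14:9130274-9130333 and a dim one at chr14:9129295-9129354 (minus). Exon and UTR annotation of this build was not used here. The Fam107a probes gave different values, and their sequences are shown for that reason. In mm9 coordinates the probes start 979 bases apart on the minus strand of chromosome 14, and they are called here the bright and the dim probe after their mean signal. The dim probe lies closer to the end of the transcript and holds the letters AATAAA, capitals in its window at chr14:9129307-9129336, as does the probe of Otop2 at chr11:115193580-115193609. These letters were found in 4965 of 39429 probes, or 12.6%.
Fam107a dim probe: atgtgtttcctaAATAAAgaaagggttggg
Otop2 probe: gtactctctggagatgagaccAATAAAcct
The bright probe holds an unbroken run of CA repeats of 18 bases, in capitals below, at chr14:9130279-9130308. A run of CA repeated 5 times or more was found in 73 of 39429 probes, or 0.185%, and in no other probe of the 5 genes. The genes whose ratios were most like those of the bright probe over the 12 pools were 4933421H12Rik and Pign, with r of 0.98 and 0.97, and their probes hold such a run too.
Fam107a bright probe: tcccacCACACACACACACACACAgaattc
4933421H12Rik probe: ttggtggCACACACACACACACAccacaaa
Pign probe: gctgtgaCACACACACACACACAttgcact
The windows of these genes lie on mm9 at chr19:37541410-37541439 and chr1:107418337-107418366.

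Among the 10 probes most like the bright Fam107a probe, 6 hold a CA run, against 0 of the 10 most like each of the other 5 probes. The median r of the bright probe was 0.73 with 70 other probes that hold such a run and 0.17 with all 26083 probes that were well above background on every array. For the dim probe the same medians were 0.23 (71 probes) and 0.08. After acute stress the log2 ratio of the bright probe was 0.19, -0.06 and 0.01 in pools 1 to 3, and the median of the 70 probes with a run was 0.21, -0.08 and -0.01. These correlations describe 12 pools that share slides and dyes, and whether the bright probe reads Fam107a RNA was not tested.

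**Figure D1:**
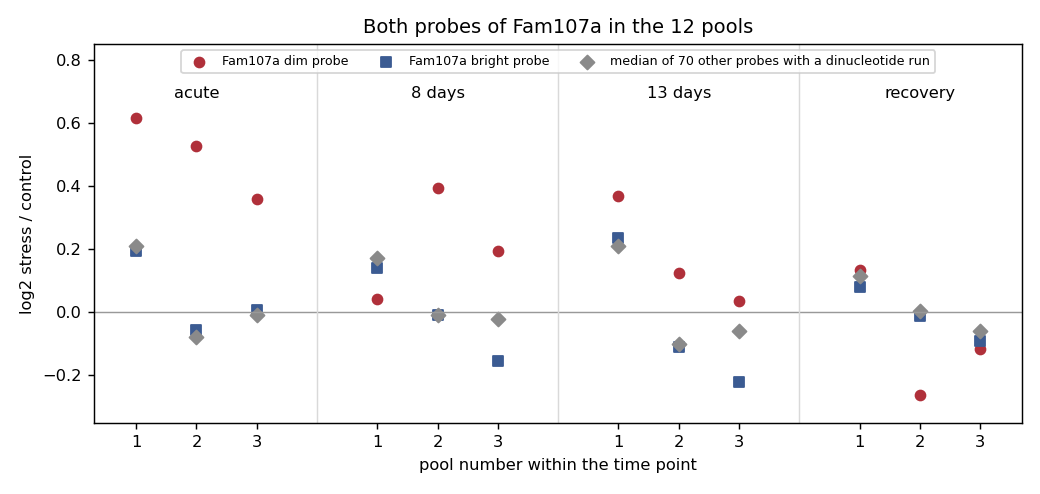
Log2 ratio of stress to control (vertical axis) in each pool (horizontal axis) of the 4 time points for the dim probe of Fam107a, its bright probe, and the median of 70 other probes with a run of a dinucleotide. After acute stress the bright probe (0.19, -0.06 and 0.01) follows that median (0.21, -0.08 and -0.01), while the dim probe lies above both in all 3 pools.

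Agxt2l1 stood first among all probes when these were ordered by the smallest absolute log2 ratio of the 3 acute pools, taken where all had one sign. Its log2 ratio of stress to control was 0.54 in pool 1, 0.92 in pool 2 and 0.60 in pool 3. All pools were higher in stress, by 61.1% on average (log2 0.69 ± 0.20, SD, n = 3). The arrays agreed in direction, since the ratio was 0.54 on the array of pool 1, 0.92 and 0.91 on the original and dye-swap arrays of pool 2, and 0.53 and 0.68 on those of pool 3. The spread of the 3 pools was wider than in most probes (SD at percentile 95.8 of all), because pool 2 lay apart.

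The dim probe of Fam107a had log2 ratios of 0.61, 0.53 and 0.36 in the acute pools, and it stood at rank 12. It was higher in stress in each, by 41.4% on average (log2 0.50 ± 0.13, SD, n = 3). On the arrays of pool 3 the ratio was 0.19 with stress in Cy5 and 0.53 with stress in Cy3, so that the orientation of the dyes mattered more there than in pool 2, with 0.55 and 0.51. The bright probe averaged 0.05 ± 0.13 (SD, n = 3), was not of one sign, and stood at rank 11183. The dim and the bright probe differed by 0.45 in their acute means. Of 4886 genes with 2 or more probes well above background on all arrays, 8 (0.164%), Fam107a included, had probes at least that far apart. The median range was 0.05. Acute values chose Fam107a, which favours a wide gap to a probe that did not agree, so nothing is read from this count.

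Sepp1 was the steadiest of the 5. Its acute log2 ratios were 0.27, 0.30 and 0.31, which is 22.5% higher in stress on average (log2 0.29 ± 0.02, SD, n = 3), with an SD at percentile 6.26 of all probes. It stood at rank 21. With median centring in place of loess the mean was 0.48. The 5 arrays ran from 0.20 to 0.40, and in pools 2 and 3 the array with stress in Cy3 gave the higher value.

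Plbd1 and Otop2 were lower in stress. The log2 ratios of Plbd1 were -0.39, -0.30 and -0.25, a change of -19.6% on average (log2 -0.31 ± 0.07, SD, n = 3), and all 5 arrays lay between -0.39 and -0.22. Otop2 had -0.30, -0.27 and -0.53, a change of -22.4% on average (log2 -0.37 ± 0.15, SD, n = 3), and its 5 arrays lay between -0.55 and -0.25. They stood at ranks 25 and 22. No threshold was stated in the choice of the 5 genes, and around the lowest rank among them Nr4a2 at rank 24 had a smallest absolute ratio of 0.2558, Plbd1 had 0.2535, and an unnamed probe at rank 26 had 0.2525.

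**Figure D2:**
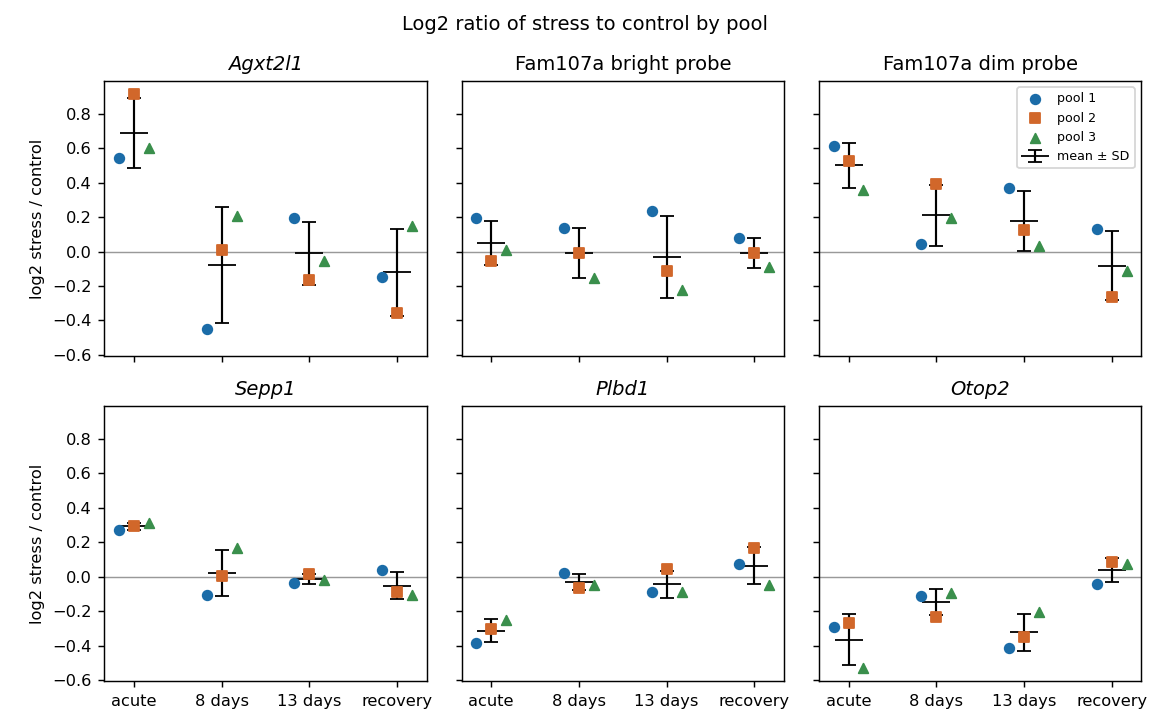
Log2 ratio of stress to control (vertical axis) by time point (horizontal axis) for each of the 6 probes, with 1 symbol per pool and a bar for the mean ± SD of 3 pools. After acute stress 5 of the 6 probes have 3 pools on one side of 0, while in recovery none has.

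Of the 6 probes, 5 had one sign in the 3 acute pools, as the choice required of their genes, where 28.4% of all probes did. The study's thresholds were a ratio beyond 0.5 on the log2 scale in either direction and an adjusted p below 0.05. In the limma fit of 12 pools made here, they called 0.00254% of probes, 1 of 39429, after acute stress. That probe reads an unnamed transcript, ENSMUST00000103426, with log2 ratios of 0.77, 0.43 and 0.47. The paper's own fit, which also held the dye swaps of pool 1, gave more transcripts at these thresholds, Agxt2l1 and Fam107a among them. The paper also reported both as higher by qPCR. The first 20 ranks held 12 probes that were higher and 8 that were lower in stress, of which 2 belong to Agxt2l1 and Fam107a.

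Among the other higher probes of the first 20 ranks were genes that oligodendrocytes are known to express. The first Mobp probe had 0.61, 0.41 and 0.47, a further Mobp probe 0.43, 0.27 and 0.28, and Trf, the transferrin gene, 0.44, 0.37 and 0.41. For the first Mobp probe the limma adjusted p was 0.0103, but its mean of 0.495 fell short of the threshold of 0.5. Bcas1 had 0.45, 0.33 and 0.32, Anln 0.40, 0.41 and 0.31, and Fa2h, an enzyme of myelin lipid synthesis, 0.30, 0.38 and 0.32. The higher probes of Rprm and Hs3st4, which are not in this group of genes, averaged 0.39 and 0.30.

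Among the lower probes, Col1a2, a collagen chain, had -0.82, -0.27 and -0.49, and Cpne4 had -0.28, -0.29 and -0.28. The remaining 6 lower probes read 4 transcripts named only by an Ensembl identifier, ENSMUST00000099683, ENSMUST00000099035, ENSMUST00000099050 and ENSMUST00000099046, with means from -0.66 to -0.53.

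**Figure D3:**
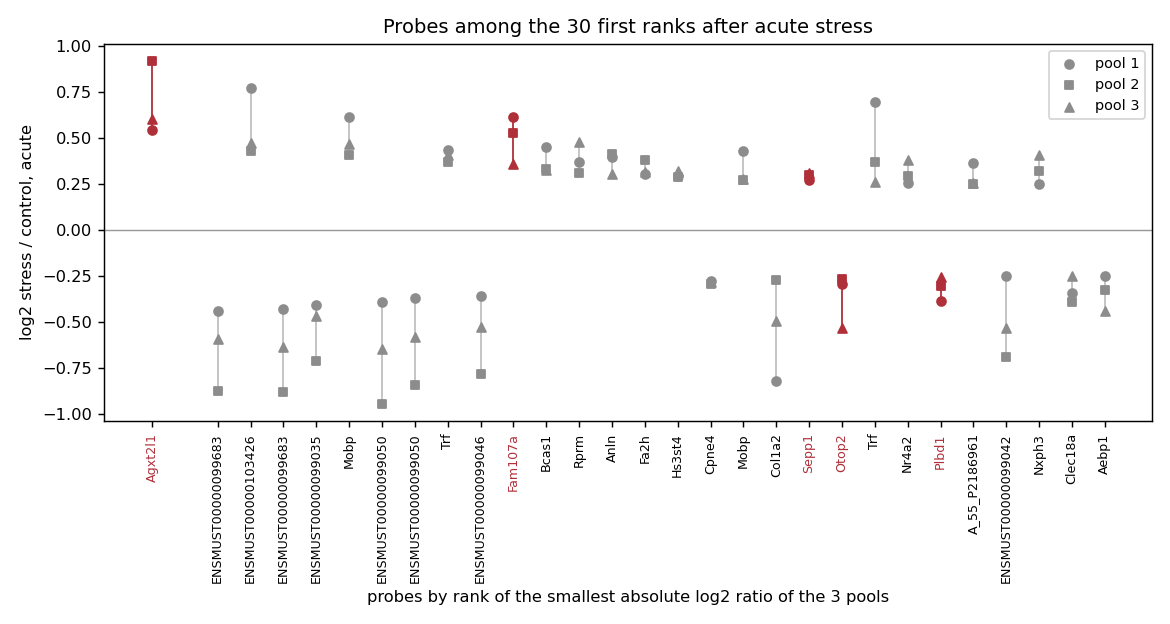
Log2 ratio of stress to control after acute stress (vertical axis) in pools 1, 2 and 3 for probes among the 30 first ranks (horizontal axis), ordered by the smallest absolute ratio of the 3 pools. Agxt2l1, Fam107a (dim probe), Sepp1, Otop2 and Plbd1 are drawn in red at ranks 1, 12, 21, 22 and 25.

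Each array also gives the signal of the stress and of the control pool by itself, and a slide held 1 array of every time point with the dyes in the same orientation. The log2 signal on the acute array, minus the mean of the 3 later arrays on the same slide, was therefore compared between channels. For Agxt2l1 the stress channel was higher by 0.65, 0.92 and 0.66 in pools 1 to 3 (mean 0.75 ± 0.15, SD, n = 3), while the control channel averaged -0.01 ± 0.16. Sepp1 behaved alike, with the stress channel at 0.325 ± 0.05 and the control channel at 0.02 ± 0.06. In both genes the channel that stood apart was thus that of the stressed mice.

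For Plbd1 the channel that stood apart was the control. It was higher on the acute arrays by 0.39, 0.19 and 0.21 (mean 0.26 ± 0.11), and the stress channel averaged -0.05 ± 0.10. For the dim probe of Fam107a the distance was shared, with the stress channel at 0.19 ± 0.10 and the control channel at -0.21 ± 0.03, below the mean of the later controls in all 3 pools. For Otop2 the stress channel averaged -0.12 ± 0.10, below 0 in all 3 pools, and the control channel 0.10 ± 0.11, above 0 in all 3 pools. The later arrays carry the effects of their own stress. Their control mice were also older and had been housed singly for longer than the acute controls. These differences between channels were not tested.

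**Figure D4:**
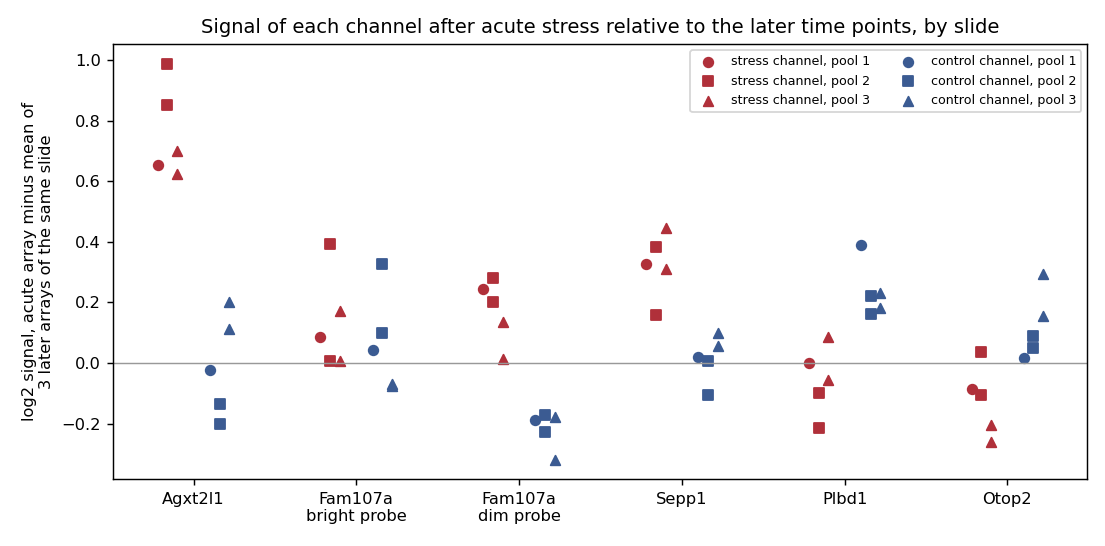
Log2 signal on the acute array minus the mean of the 3 later arrays of the same slide (vertical axis) for the 6 probes (horizontal axis), drawn for the stress channel in red and the control channel in blue, with 1 symbol per slide and the shape giving the pool. In Agxt2l1 and Sepp1 the stress channel lies above 0 on all 5 slides, and in Plbd1 the control channel does.

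At the 3 later time points, whose ratios the choice did not use, 0 of the 6 probes were called in limma, the only tool run, after 8 days, after 13 days or in recovery. The fit shares a single variance per probe over all time points. The acute pools, chosen for their agreement, therefore enter the SE and p-values given here for the later ones. Of all probes, 0% were called after 8 days, 0.0228% after 13 days and 0% in recovery. At an unadjusted p under 0.05, 2 of 6 probes passed after 8 days (2.39% of all probes), 1 of 6 after 13 days (7.18%) and 0 of 6 in recovery (3.56%). One sign in all 3 pools was found for 2 of 6 probes after 8 days (18.6% of all), 2 of 6 after 13 days (26.5%) and 0 of 6 in recovery (21%).

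Otop2 was the gene that came nearest to a call. After 13 days its log2 ratios were -0.42, -0.35 and -0.20, so that every pool was lower in stress, as were all 5 arrays. The mean was -0.32 ± 0.11 (SD, n = 3), a change of -20.1%, with a limma SE of 0.06, an unadjusted p of 7.51e-05 and an adjusted p of 0.141. By the smallest absolute ratio of the 3 pools it stood at rank 46 after 13 days and at rank 108 after 8 days. After 8 days the ratios were -0.12, -0.23 and -0.10 (mean -0.15 ± 0.08, limma adjusted p = 1), again lower in 3 of 3 pools. In recovery they were -0.04, 0.09 and 0.07, on both sides of 0.

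The dim probe of Fam107a was higher in stress in 3 of 3 pools after 8 days, at 0.04, 0.39 and 0.19 (mean 0.21 ± 0.18, limma unadjusted p = 0.0269, adjusted p = 1). After 13 days it was higher in 3 of 3 pools again, at 0.37, 0.12 and 0.03 (mean 0.18 ± 0.17, limma adjusted p = 0.711). In recovery it was at 0.13, -0.26 and -0.11. The bright probe stayed between -0.22 and 0.24 in the 9 later pools, higher in 3 and lower in 6.

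Agxt2l1 had no common direction later. Its log2 ratios were -0.45, 0.01 and 0.21 after 8 days, 0.19, -0.17 and -0.05 after 13 days, and -0.15, -0.36 and 0.15 in recovery, with limma adjusted p-values of 1, 0.997 and 0.999. The pools spread widely, with an SD of 0.34 after 8 days, where the median SD over all probes was 0.0776. Sepp1 lay between -0.11 and 0.17 in the 9 later pools, higher in 4 and lower in 5, and Plbd1 between -0.09 and 0.17, also higher in 4 and lower in 5.

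For Agxt2l1, Sepp1 and Plbd1 the 3 acute pools did not overlap the 9 later pools, with gaps of 0.33, 0.10 and 0.16 on the log2 scale. That is 3 of 6 probes, where 1.01% of all probes were separated in this way. Acute stress chose the genes, so nothing is read from this count. The acute and later pools overlapped for both probes of Fam107a and for Otop2.

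The later time points were also compared with each other in the same limma fit, with the same shared variance. Between 13 and 8 days, recovery and 13 days, and recovery and 8 days, 0 of the 6 probes were called, as were 0%, 0% and 0% of all probes. At an unadjusted p under 0.05, 1 of 6 passed in the first comparison (1.54% of all probes), 1 of 6 in the second (4.94%) and 2 of 6 in the third (1.5%). Otop2 passed in each. Its ratio was 0.36 ± 0.08 (limma SE) higher in recovery than after 13 days, at an unadjusted p of 0.000601 and an adjusted p of 0.844. The other probe in the third comparison was the dim probe of Fam107a, lower in recovery than after 8 days by a log2 difference of -0.29 ± 0.12 (limma SE, adjusted p = 1).

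The 5 genes were also set against each other over the 9 later pools. Of 10 pairs, 0 passed at an exact permutation p (two-sided, all pairings) under 0.05 adjusted over the 10 pairs, and 1 did so unadjusted. That pair was Agxt2l1 and Plbd1, with Pearson's r of -0.74 (exact p = 0.0235, adjusted p = 0.235) and Spearman's rho of -0.63 (exact p = 0.076, adjusted p = 0.54). With the 2 pools left out whose Agxt2l1 ratios lay farthest from its median, r was -0.69 (exact p = 0.105). With the mean of each time point removed r was -0.80 (permutation p = 0.0111, adjusted p = 0.111). The other 9 pairs had r between -0.35 and 0.50. With the dim probe of Fam107a in place of the bright one, the pair with Otop2 had r of -0.77 (exact p = 0.0152, adjusted p = 0.118) and rho of -0.65 (exact p = 0.0666, adjusted p = 0.27). For this pair r was -0.73 (exact p = 0.0621) without the 2 farthest pools and -0.87 (permutation p = 0.00405, adjusted p = 0.0405) within time points. The p-values with time point means removed are not exact. They come from pairings across time points, although such values sum to 0 within each time point, so no pass is read from them. The other p-values are exact only where pools can be exchanged freely. Same-numbered pools shared slides, and pools of a time point shared their treatment, which the pairings ignored.

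Over all 12 pools, acute included, the genes most like each member were taken as the 3 highest Pearson's r of 22097 probes. Those of Agxt2l1 were Hist2h3c2 (r = 0.91), 2010002N04Rik (0.90) and Smox, which codes for spermine oxidase (0.89). Those of Sepp1 were Csrp1 (0.98), Ano3 (0.90) and Slc24a2 (0.89), and Csrp1 followed it closely after acute stress as well, at 0.21, 0.20 and 0.20 against 0.27, 0.30 and 0.31. Those of Plbd1 were Bicc1 (0.92), Trim9 (0.90) and Gkn3 (0.90), and those of Otop2 were Car12, a carbonic anhydrase (0.91), Gm10725 (0.90) and 2210008F06Rik (0.88). For the dim probe of Fam107a, taken after the bright one had been seen, they were Ttyh2 (0.90), Cyp2j9 (0.89) and Cml1 (0.88). The best of so many probes is high by selection, so these are descriptions of 12 pools.

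Promoter windows of RefSeq (GRCm38.p6), which reach from upstream of a transcript start to just after it, were found for all 5 genes and were searched on both strands. The half-site AGAACA, a part of the element that the glucocorticoid receptor binds, was found in 2 overlapping windows of Fam107a, 2 times in each, and in none of the other windows of the 5 genes. It stands in 6226 of 32817 windows, or 19%. The matches in Fam107a, in capitals below, begin 160 and 112 bases before one start and 158 and 110 before the other, and the second is read on the opposite strand.
Fam107a upstream, chr14:8309920-8309949, minus strand: catcagtctgacAGAACAtgtatttatttg
Fam107a nearer to the start, chr14:8309872-8309901, minus strand: gcttggacatggTGTTCTgagtctcggaca
A pair of half-sites facing each other with 3 bases between was found in 3 windows of the table (0.00914%) and in none of the 5 genes, as was TGACGTCA (588 windows, 1.79%). TATAAA was found in 1 window of Sepp1 and in 4470 windows in all (13.6%). A match gives letters, not a bound site.

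Of 91 genes in 9 lists on the pathways and families of the 5 genes and on glucocorticoid responses, 90 were measured, and 0 were called in limma at any of the 4 time points. At an unadjusted p under 0.05 there were 15 of 90 after acute stress, where 4.94% of all probes passed. There were 8 of 90 after 8 days (2.39% of all probes), 16 of 90 after 13 days (7.18%) and 3 of 90 in recovery (3.56%). One sign in the 3 acute pools was found for 13 of the 90 higher and 14 lower in stress (14.4% and 15.6%), and for 13.95% and 14.49% of all 30210 genes.

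Around Agxt2l1, the phosphoethanolamine and ethanolamine lipid list (13 genes) had a median log2 ratio of 0.02 after acute stress, with 1 gene higher and 2 lower in 3 pools. Etnk2, an ethanolamine kinase that makes phosphoethanolamine, had -0.08, -0.32 and -0.37, and Sgpl1, the lyase that releases it from sphingosine phosphate, had 0.01, -0.13 and -0.11. Among 5 related aminotransferases the median was 0.03. Abat, which breaks down GABA, had 0.15, 0.12 and 0.20, and Agxt2l2, the closest relative of Agxt2l1, had 0.01, 0.11 and -0.03.

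Around Fam107a, the 7 genes of its family and of actin regulation had a median of -0.04. Its relative Fam107b had -0.06, -0.10 and -0.11, and Arpc2, a subunit of the actin-nucleating Arp2/3 complex, had -0.09, -0.04 and -0.13. The 24 glucocorticoid-induced genes had a median of -0.01, with 6 higher and 2 lower in 3 pools. Sult1a1, a sulfotransferase, had 0.74, 0.39 and 0.17, and Plin4, a lipid droplet protein, had 0.28, 0.39 and 0.17. In pools 2 and 3 the median of this list was 0.10 and 0.10, and in pool 1 it was -0.10.

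Around Sepp1, the 19 measured selenoproteins of 20 had a median of 0.01, with 4 higher and 3 lower in 3 pools. Dio2, the deiodinase that activates thyroid hormone, had -0.23, -0.20 and -0.20, and Sepx1, a methionine sulfoxide reductase, had 0.05, 0.21 and 0.12. The 6 genes that insert selenocysteine had a median of 0.02, with Trnau1ap at -0.21, -0.05 and -0.05 and Sepsecs at 0.18, -0.01 and 0.02. The 3 genes of selenium uptake and release had a median of 0.05, among them Scly, the selenocysteine lyase, at 0.10, 0.16 and -0.01, and Lrp2, a receptor for selenoprotein P, at 0.08, 0.07 and 0.01, well above background on 2 of 20 arrays.

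Around Plbd1, 6 genes of related lipases and lysosomal enzymes had a median of -0.02. Lpl, the lipoprotein lipase, had -0.17, -0.45 and -0.31, and Plbd2, the closest relative, had -0.14, -0.03 and -0.11, so that both were lower in 3 of 3 pools. Around Otop2, the 7 otopetrins and acid-sensing or proton channels had a median of -0.05, with Asic4 at -0.25, -0.09 and -0.02 and Asic2 at -0.34, -0.07 and 0.09.

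Markers of cell types that a frontal slice can hold were read beside the 5 genes. Of 9 oligodendrocyte markers, 7 were higher and 0 lower in stress in the 3 acute pools, with list medians of 0.22, 0.16 and 0.16 in pools 1 to 3. Mag, for example, had 0.44, 0.40 and 0.16. Their summed signal ran from 30620 to 54780 in the stress and from 27340 to 52180 in the control channel. Of 8 meningeal markers, 5 were lower and 0 higher in 3 pools (medians -0.14, -0.22 and -0.25), with summed signals of 5637 to 6365 in stress and 6924 to 8917 in control, which do not overlap. Slc6a13 had 0.02, -0.46 and -0.54. The oligodendrocyte sums of the channels overlap, and within the pairs their log2 ratio of stress to control was -0.004, 0.08 and 0.20 in pools 1 to 3. The part of either list in the values of the 5 genes was not tested.

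Of 19 astrocyte markers, 6 were higher and 3 lower in the acute pools, with a median of 0.07. By pool the list medians were 0.09, 0.06 and -0.03, and 13, 13 and 9 of the 19 markers were higher in stress. Aldoc had 0.31, 0.16 and 0.26, while Aqp4, the astrocyte water channel, had -0.04, -0.32 and -0.38. Their summed signal ran from 167400 to 184500 in stress and from 149500 to 174200 in control, and within the pairs its log2 ratio of stress to control was 0.20, 0.09 and 0.11, higher in stress in 3 of 3 pools. Agxt2l1 is known as an astrocyte transcript, and the part of these markers in its values was not tested. The medians were 0.06 for neurons (Rbfox3 at 0.08, 0.09 and 0.16, Stmn2 at 0.14, 0.03 and 0.06), -0.02 for endothelium (Cldn5 at 0.00, -0.19 and -0.31, Flt1 at -0.35, 0.02 and 0.18), 0.06 for microglia (P2ry12 at -0.07, -0.19 and -0.19, C1qb at 0.23, 0.01 and 0.10) and 0.01 for choroid plexus (Kl at -0.11, -0.15 and -0.05, Folr1 at -0.12, -0.02 and -0.02).

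In other lists single pools stood apart. Monocyte and neutrophil genes had medians of -1.75, 0.01 and 0.07, with Camp at -3.37, -0.04 and 0.21 and Ltf at -2.12, 0.01 and 0.08, and their summed signal had a log2 ratio of -2.88 in pool 1 against 0.04 and 0.23 in pools 2 and 3. On the acute arrays that sum ran from 1792 to 2421 in the stress and from 1752 to 13250 in the control channel. The part of this list in the values of the 5 genes was not tested. Olfactory bulb markers had medians of 0.12, 0.30 and -0.29, with Doc2g at 0.36, 0.56 and -0.48 and Tbx21 at -0.13, 0.11 and -0.13. Red cell genes were at -0.26, 0.12 and 0.04 after acute stress. After 13 days 5 of 5 were called higher in limma, among them Hbb-b1 at 1.61, Hbb-b2 at 1.46, Hba-a2 at 1.40 and Hba-a1 at 1.34, with adjusted p-values of 0.0091 to 0.015 for these 4. In pools 2 and 3 alone, the acute means were 0.76 for Agxt2l1, 0.44 for the dim probe of Fam107a, 0.30 for Sepp1, -0.28 for Plbd1 and -0.40 for Otop2. Their sign is fixed by the choice of genes with 3 pools of one sign.

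**Figure D5:**
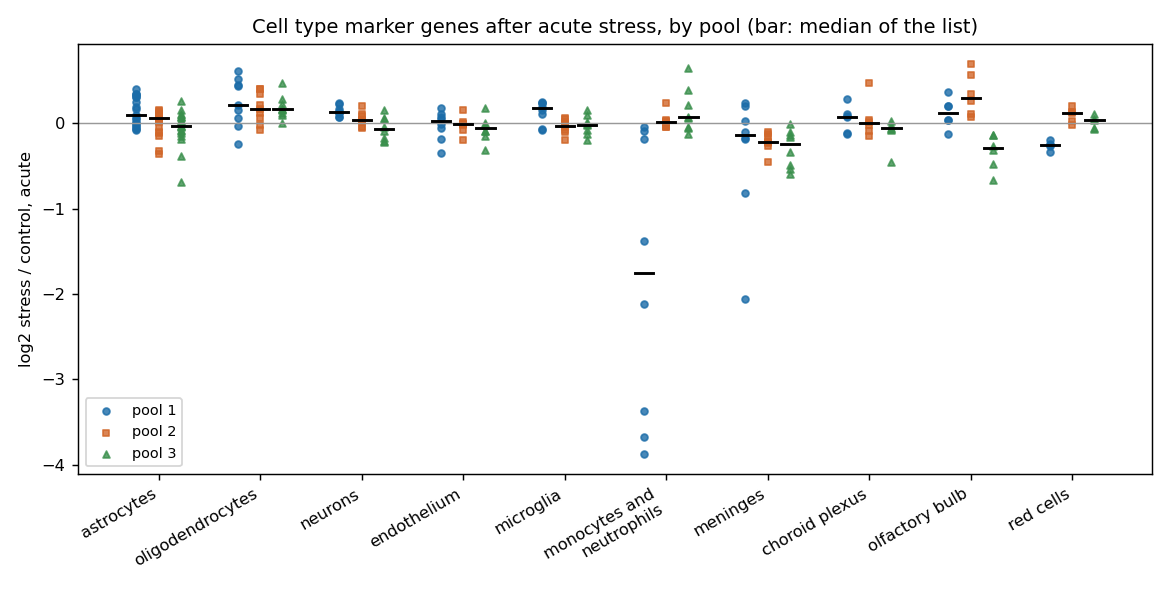
Log2 ratio of stress to control after acute stress (vertical axis) of the marker genes of 10 cell types (horizontal axis), with 1 symbol per gene and pool and a bar for the median of the list in each pool. Oligodendrocyte medians lie above 0 and meningeal medians below 0 in all 3 pools, and the monocyte and neutrophil list lies far below 0 in pool 1.

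All 6 probes were well above background on all 20 arrays. Between 71.03% and 74.88% of probes were so on an array, outlier spots made up 0.314% to 0.73%, and 0 spots were saturated. The number of pools, 3 at each time point, limits the precision of every ratio given here.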

How the data were processed

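Dual-colour Agilent arrays were scanned by the authors and read with Agilent Feature Extraction (protocol GE2_1010_Sep10), and the deposited tables hold spot intensity values without normalization. They also hold, per the file headers, a log10 ratio of red over green, already background-subtracted and dye-normalized. The authors' value table, as deposited, holds a log2 ratio of stress over control, whose background offset is not given in the sources used here. From the intensities, the background was corrected by normexp (offset 50) and arrays were normalized by loess and Aquantile in limma 3.58.1 (R 4.3.3). Outlier spots counted as missing. The 43020 spots that are no controls gave 39429 probe means. Ratios were turned to stress over control, and the original and dye-swap arrays of pools 2 and 3 were averaged. Pool 1 was read from its original arrays alone, its dye swaps not being used here. limma fitted 12 pools with a coefficient per time point, with Benjamini-Hochberg adjustment over all probes, after a test on simulated data. Pools are labelled as biological replicates. Pool 1 lies on 1 slide and pools 2 and 3 on 2 each, every slide with all time points. The arrays of pools 1 and 2 share one scan date, and those of pool 3 have another.

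The 5 genes, the lists and the tests were chosen with earlier results of these data known. Named beside them were the first 20 probes after acute stress, the 3 genes most like each brightest probe, and for each list the called genes (at most 4) or the 2 with the largest moderated t after acute stress. Some items named by this rule are not reported here. Lists used the brightest probe per gene. The alternatives were the background offset, no background correction, median centring, no Aquantile, both deposited ratios, a filter on dim probes, kept outlier spots, fits of 20 arrays, a replicate block, another variance model, arrays with stress in Cy5, and each pool left out. Probe positions are those of the array tables (mm9), and promoters come from RefSeq (GRCm38.p6).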

Additional observations from a re-analysis of the deposited data

How the results depend on the processing

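Under the alternatives listed above and with pools 2 and 3 alone, which was chosen after seeing the data, no probe of the 5 genes was called after 8 days, after 13 days, in recovery or in the differences between them. The count of probes with one sign in the acute pools was 5 in the main analysis and 4 to 6 in the alternatives, namely 4 with median centring in place of loess and 6 with arrays of stress in Cy5 alone. With each pool left out in turn it was 5 to 6, and the counts of called probes stayed at 0 to 0. The mean acute ratio, whose sign the choice of genes fixes where pools are left out, ranged over the alternatives as follows for Agxt2l1 (0.57 to 0.81), the dim probe of Fam107a (0.44 to 0.65), Sepp1 (0.23 to 0.48), Plbd1 (-0.47 to -0.24) and Otop2 (-0.49 to -0.28). The bright probe of Fam107a ran from -0.02 in pools 2 and 3 alone to 0.23 with median centring, which also gave the 0.48 of Sepp1 and the 0.65 of the dim probe. The adjusted p of Otop2 after 13 days was 0.0358 with 20 arrays and the pool as a random block and 0.0242 with the slide as a block in addition, of a range of 0.0242 to 1 over its alternatives, with log2 ratios of -0.30 and -0.33 that do not reach 0.5 in size. That of the dim probe of Fam107a after 8 days was 0.0371 in the latter fit (log2 0.35), of a range of 0.0371 to 1 over its alternatives. In the fits of 20 arrays the correlation within a pool was -0.085 without the slide and 0.049 with it. The arrays of a pool thus counted almost as separate pools, and nothing is read from the lower adjusted p-values of these fits.

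The genes called in the pathway lists were 0 in the main analysis and 1 both with 20 arrays, the slide as a block and the pool as a random block, and with arrays of stress in Cy5 alone, and the cause was not tested. With each pool left out they were 0 to 0.

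The pool numbers were tried as a replicate block. Same-numbered pools had a median r of 0.28 in their deviations (lowest -0.12, 18 pairs), against -0.13 (highest 0.39, 36 pairs) for different numbers. By the array headers same-numbered pools share slides and a scan date, which was one date for pools 1 and 2 and another for pool 3. The arrays of pool 1 also share one dye orientation. The sample labels give no further pairing. The replicate block left the called counts at 0 and the count of one sign at 5. Of the 10 pairs of genes, 0 passed after adjustment in each alternative without removal of the time point means, also with pool numbers left out (0 to 0). With those means removed, 1 pair had an adjusted p under 0.05, the dim probe of Fam107a with Otop2 (r = -0.87, permutation p = 0.00405, adjusted p = 0.0405). With the bright probe none had (lowest adjusted p = 0.111). These permutation p-values are not exact, since values were paired across time points, and no pass is read from them.

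Limits: 3 pools of 3 mice per time point, pool 1 without a dye swap where swapped arrays correlate negatively, probe signals that cannot be set against each other, and for Fam107a probes that differ.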
